A study of Rattus norvegicus with 65 samples.

Results

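The serotonin receptor genes described here were 10 rows of a gene count table from rat hypothalamus: Htr1a, Htr1b, Htr1d, Htr2a, Htr2c, Htr3a, Htr4, Htr5a, Htr6 and Htr7. They were taken by gene symbol from a table of 38513 genes, and all 10 were among the 21871 genes that passed a filter on low counts. No member had a count of 0 in any of the 65 libraries, and the lowest count was 5, for Htr1d.

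Hypothalami came from adult male Wistar rats, 1 library per rat, made obese on a high-fat diet (not stated for the lean group), and taken 4 weeks after the intervention and a 10 h fast. The groups were Roux-en-Y gastric bypass (RYGB, labelled Bypass, 14 libraries), sham surgery (Sham, 11), and sham surgery with food restricted to match the body weight of RYGB-treated rats (BWM, 7). The others were osmotic minipump PYY3-36 at 0.1 mg/kg/day (PYY, 4), subcutaneous liraglutide, a stable analogue of the gut hormone GLP-1, at 0.4 mg/kg/day (Lira, 5), both together (PYY_Lira, 10), saline by both routes (Saline, 8), and rats labelled only Lean (6), whose age and time of collection are not given in the sources used here. Apart from BWM, and from lean rats whose diet the labels do not give, animals chose freely between high- and low-fat diet. Libraries came from 2 experimental periods, batch A (37) and batch B (28): RYGB had 11 in A and 3 in B, sham 5 and 6, saline 3 and 5, PYY3-36 + liraglutide 5 and 5, while BWM and lean were in A only and PYY3-36 and liraglutide alone in B only.

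Serotonin is made in the brain by neurons of the raphe nuclei, which send axons into the hypothalamus and restrain feeding there. Its receptors differ in the signal they pass on. Htr1a, Htr1b, Htr1d and Htr5a couple to inhibitory G proteins and lower cyclic AMP, Htr2a and Htr2c couple to Gq and raise intracellular calcium, and Htr4, Htr6 and Htr7 couple to Gs and raise cyclic AMP. Htr3a is the exception, a subunit of a ligand-gated cation channel. In the hypothalamus, Htr2c on proopiomelanocortin neurons and Htr1b on neurons that make agouti-related peptide are the receptors best known for reducing food intake.

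Promoter sequences are shown for the receptors whose levels the results below turn on and for which a RefSeq entry was at hand, namely Htr5a and Htr1b, which were compared between RYGB- and sham-treated rats, and Htr1d and Htr6, whose levels followed striatal markers. Each is the 250 bases before the annotated start in RefSeq, build GRCr8, 5′ to 3′ on the strand of the gene. Htr5a lies at chr4:8188486-8188735 on the minus strand, Htr1b at chr8:91414816-91415065 on the minus strand, Htr1d at chr5:153939485-153939734 on the plus strand and Htr6 at chr5:156595148-156595397 on the minus strand. Capitals mark matches to a GC box (GGGCGG) or a CCAAT box (CCAAT), on either strand, so that a CCAAT box on the other strand reads ATTGG.
Htr5a: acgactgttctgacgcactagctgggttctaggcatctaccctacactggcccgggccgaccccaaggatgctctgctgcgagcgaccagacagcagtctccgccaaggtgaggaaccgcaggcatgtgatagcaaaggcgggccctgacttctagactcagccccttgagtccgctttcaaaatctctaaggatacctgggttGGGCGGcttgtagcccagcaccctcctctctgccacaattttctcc
Htr1b: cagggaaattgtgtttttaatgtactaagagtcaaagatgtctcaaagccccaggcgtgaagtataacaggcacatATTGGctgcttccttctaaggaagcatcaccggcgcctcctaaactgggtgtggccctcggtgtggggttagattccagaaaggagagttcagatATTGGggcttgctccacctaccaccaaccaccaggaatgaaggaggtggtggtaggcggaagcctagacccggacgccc
Htr1d: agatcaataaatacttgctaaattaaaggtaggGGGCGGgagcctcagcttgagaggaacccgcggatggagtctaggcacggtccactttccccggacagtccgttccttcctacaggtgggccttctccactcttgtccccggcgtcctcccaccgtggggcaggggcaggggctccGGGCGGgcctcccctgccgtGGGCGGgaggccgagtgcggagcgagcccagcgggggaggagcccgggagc
Htr6: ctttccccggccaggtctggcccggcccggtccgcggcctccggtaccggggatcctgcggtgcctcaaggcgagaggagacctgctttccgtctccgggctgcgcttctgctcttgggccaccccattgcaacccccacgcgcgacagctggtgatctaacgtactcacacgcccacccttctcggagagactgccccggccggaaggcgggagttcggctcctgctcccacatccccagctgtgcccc
The Htr5a window held 1 GC box, the Htr1b window 2 CCAAT boxes and the Htr1d window 3 GC boxes, while the Htr6 window held neither motif. Of 33469 rat promoters of the same length, 30.5% held a GC box and 34.0% a CCAAT box. None of the 4 windows held TATAAA (12.9% of promoters) or the cyclic AMP response element TGACGTCA (1.59%). GC content was 58.4% for Htr5a, 52.4% for Htr1b, 66.8% for Htr1d and 69.2% for Htr6, against a median of 51.2% over all promoters. RefSeq entries matched 6 of the 10 members, the others being Htr2c (50.4% GC, 1 CCAAT box) and Htr7 (80.8% GC). A match is a description of letters in a window, not a bound site.

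Library totals ran from 20040821 to 36539714 counts, and batch A (median 29571483) was deeper than batch B (23385849). The label hypothalamus was checked with the mean log2 level of 12 hypothalamic markers. This score was 3.78 to 6.66 in 52 libraries and 1.56 to 3.14 in the other 13: sham replicates 1, 2, 6 and 10, lean 2 and 5, saline 3 and 4, liraglutide 3 and 4, PYY3-36 2, PYY3-36 + liraglutide 8 and BWM 1, and 0 of the 14 RYGB libraries. Striatal markers, scored the same way, were above 7 in 13 libraries, 6 of which were also low in hypothalamic markers. These were BWM 1, lean 2, 3 and 4, liraglutide 3, PYY3-36 + liraglutide 5, 6, 8 and 9, saline 8, and sham 5, 6 and 10. Both sets were defined after seeing the data, and several results below are given with and without them. Markers of the raphe neurons themselves were near the floor: Tph2 had a median of 1.13 CPM, the transporter Slc6a4 had 0.124 and was at 0 in 12 libraries, and Fev had 0.0319 and was at 0 in 31.

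Htr2c was by far the most abundant serotonin receptor transcript. Its level, in CPM (counts scaled to library size) per kilobase of annotated exon so that genes can be compared, was 26.0 ± 8.67 (SD, n = 65), ranging from 10.6 to 46.0, and it exceeded that of Htr3a in all 65 libraries. Htr2c made up 56.6% of the summed level of the 10 genes, and it exceeded the other 9 combined in 50 of 65 libraries, with ratios from 0.406 to 3.0 and a median of 1.33.

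Htr3a followed at 4.42 ± 1.57 on the same per-kilobase scale. In this order Htr7 is taken by its own row alone, which is too low because a copy shares its reads, as described below. By that row, Htr3a lay above Htr7 in 53 libraries. Htr7 (3.04 ± 1.12) and Htr5a (2.92 ± 1.25) could then not be ordered, Htr7 being higher in 33 of 65. Htr5a lay above Htr1b (2.27 ± 1.30) in 53. Below it, Htr1b, Htr1a (2.03 ± 1.28), Htr6 (2.02 ± 2.15) and Htr2a (1.80 ± 1.33) differed by less than their spread, with Htr1b above Htr1a and Htr1a above Htr6 in 42 libraries each and Htr6 above Htr2a in 31. Htr1d (0.750 ± 0.728) and Htr4 (0.709 ± 0.697) were lowest, and Htr1d was the higher of the pair in 33 libraries.

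The 3 most abundant genes also varied least within a group and batch. The median coefficient of variation over the 12 sets of group and batch was 25.5% for Htr2c, 26.2% for Htr3a and 28.3% for Htr7. It was 36.5% for Htr5a, 42.8% for Htr1a, 48.4% for Htr2a, 49.3% for Htr1b, 51.5% for Htr4, 60.8% for Htr6 and 75.2% for Htr1d.

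**Figure D1:**
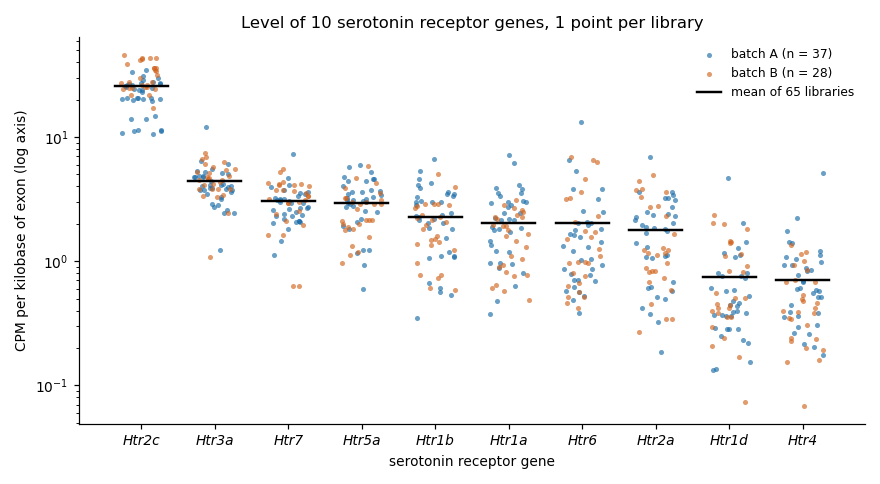
Level of each serotonin receptor gene in each of the 65 libraries (CPM per kilobase of exon, log axis), with points coloured by batch (37 A, 28 B) and a bar at the mean over all libraries. Htr2c, with a mean of 26.0, stands above every other gene, and Htr1d and Htr4, at 0.750 and 0.709, are lowest and among the most spread. Htr7 is drawn from its own row alone, without the copy that shares its reads.

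The Htr7 level is a lower value than the reads support, because its reads were divided with a copy. The row LOC103694905, on an unplaced scaffold with the same 3055 bases of exon, held the same count as Htr7 in 64 of 65 libraries and differed by 1 count in the other. Htr7 values were not whole in 31 libraries, since reads that matched both places were entered as fractions. With both rows summed, the per-kilobase level of Htr7 was 6.08 ± 2.25, above Htr3a in 50 of 65 libraries, and the share of Htr2c was 53.1%. Fold changes are unaffected by an even division.

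The comparison of RYGB- with sham-treated rats asks what the operation changed beyond surgery itself. Htr2a and Htr5a were higher in RYGB-treated animals, Htr1b and Htr6, at 0.83 and -1.08 on the log2 scale, did not pass the threshold, and the abundant Htr2c, Htr3a and Htr7 lay between -0.09 and 0.00. Under edgeR's quasi-likelihood test with batch as a term and Benjamini-Hochberg adjustment, 2 of the 10 members passed, both higher, where 13% of all 21871 genes tested passed (6.52% higher and 6.53% lower). Of these only Htr2a also had a log2 fold change over 1, where 2.37% of genes did. DESeq2 called the same 2 members, and 10% of 33452 genes with a count. All DESeq2 shares given here have this wider base, with low-count genes that edgeR's filter removed. They are thus not like-for-like with the edgeR shares. At an unadjusted p under 0.05 there were 4 of 10, where 30% of all genes did so. The median log2 fold change was 0.00 over the members and -0.02 over all genes. In bulk tissue, a difference in the number of cells that carry a receptor and a difference in RNA per cell cannot be told apart.

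Htr2a (gene31347, Rnor_6.0 chromosome 15, 56666152 to 56732469, plus strand), a Gq-coupled receptor abundant in cortex, showed the widest difference. In batch A its level in sham-treated rats was 0.583, 0.661, 0.804, 0.909 and 0.958 CPM, and the 11 RYGB-treated rats ran from 0.290 through a median of 2.94 to 5.05. In batch B the 6 sham libraries ran from 0.531 through 1.22 to 1.77, and the 3 RYGB libraries gave 1.5, 1.92 and 4.35. Of 14 RYGB libraries, 10 lay above all 11 sham libraries and 1, replicate 11, lay below all of them, so the groups overlapped. Means were 2.94 ± 1.40 (SD, n = 14) and 0.954 ± 0.392 (SD, n = 11), a ratio of 3.09. The fitted log2 fold change was 1.74 ± 0.42 (SE), with an adjusted p of 0.00579.

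The Htr2a call held with each of the 25 libraries left out in turn, at log2 fold changes of 1.66 to 1.83 and adjusted p of 0.000886 to 0.0151. It was 1.69 ± 0.45 (adjusted p 0.0119) without the libraries of low hypothalamic score, and 1.75 ± 0.45 (0.0355, with 2.2% of genes passing) without those of high striatal score. Within batch A alone it was 1.96 ± 0.54 (adjusted p 0.0469, with 2.43% of genes passing) and within batch B 1.26 ± 0.67 (0.237, with 11.8% passing). Neither it nor any other member differed in its change between batches past the threshold (0 of 19374 genes by edgeR, 8.66% at an unadjusted p under 0.05). Against saline-treated rats the difference of RYGB was smaller, 0.44 ± 0.44 (adjusted p 0.9999), and sham vs. saline gave -1.30 ± 0.44 (adjusted p 0.242).

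Htr5a (gene10698, chromosome 4, 199916 to 209599, plus strand), an inhibitory receptor expressed mainly in neurons, gave a smaller difference. The batch A sham libraries gave 2.40, 3.53, 3.77, 5.74 and 6.07 CPM, and RYGB libraries ran from 1.16 through 6.71 to 10.3. In batch B sham ran from 1.89 through 2.89 to 5.17, and RYGB gave 5.60, 5.61 and 6.04. The groups overlapped in batch A, the lowest RYGB library again being replicate 11. In batch B all 3 RYGB libraries lay above the 6 sham libraries, and how often other genes did so was not counted. Group means were 6.61 ± 2.26 (SD, n = 14) and 3.65 ± 1.46 (SD, n = 11), and the fitted log2 fold change was 0.77 ± 0.25 (adjusted p 0.0352).

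The Htr5a call was close to the threshold. It was kept in 16 of 25 fits that left out a library, over which log2 fold changes were 0.70 to 0.87 and adjusted p 0.00551 to 0.0778. It was lost without RYGB replicate 1 (0.74), 4 (0.72), 9 (0.74) or 13 (0.76), or without sham replicate 2 (0.76), 4 (0.75), 5 (0.70), 8 (0.72) or 10 (0.73). Within batches it was 0.68 ± 0.35 (adjusted p 0.249) in A and 0.90 ± 0.38 (0.124) in B. It was 0.79 ± 0.27 (0.0475) without the low-hypothalamus libraries and 0.66 ± 0.28 (0.145) without the high-striatum libraries. Against saline the difference of RYGB was 0.10 ± 0.28.

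**Figure D2:**
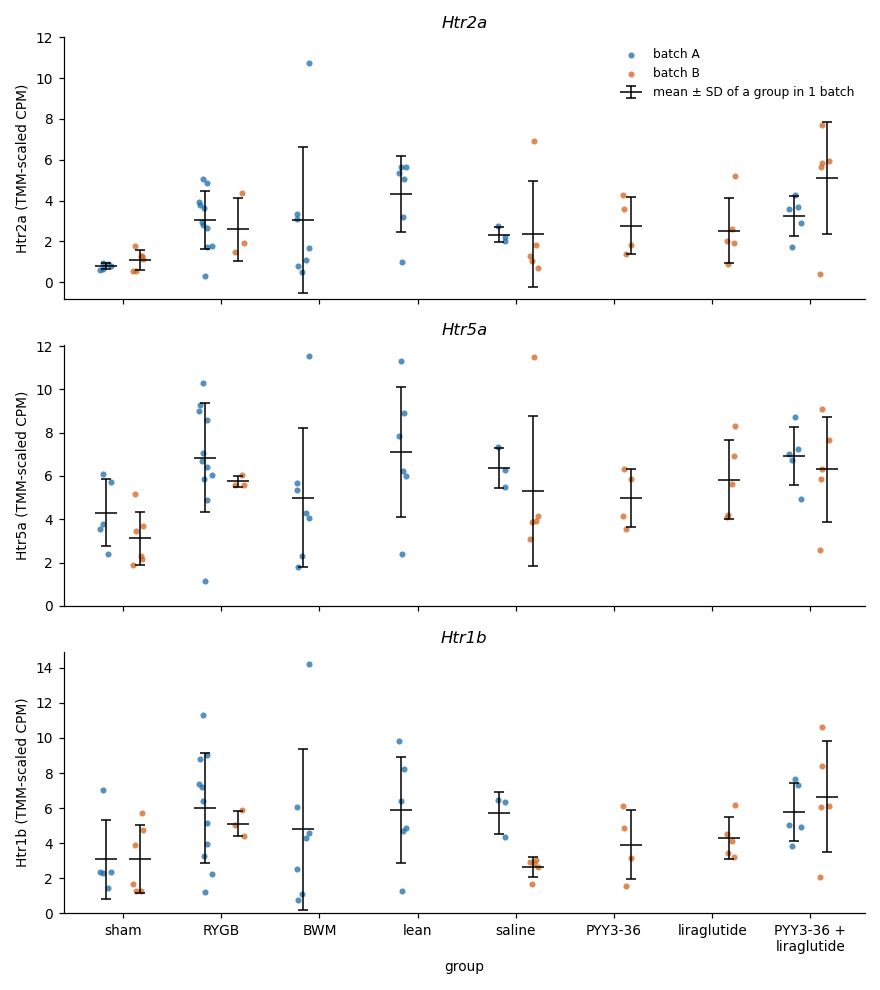
Level of Htr2a, Htr5a and Htr1b (CPM after TMM scaling) in each library by group and batch, with the mean and SD of each set. For Htr2a the 11 sham libraries sit between 0.531 and 1.77 and 10 of 14 RYGB libraries lie above all of them, while for Htr1b sham (1.26 to 7.05) and RYGB (1.20 to 11.3) overlap.

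Htr1b (gene20862, chromosome 8, 89113984 to 89130830, minus strand) and Htr1a (gene5328, chromosome 2, 36246628 to 36247896, plus strand, a single exon) are inhibitory receptors on serotonin neurons and on their targets. Htr1b in batch A sham libraries was 1.42, 2.28, 2.33, 2.34 and 7.05 CPM. Batch B sham libraries ran from 1.26 through 2.77 to 5.70, and the 14 RYGB libraries from 1.20 through 5.53 to 11.3. Of the 14 RYGB libraries 5 lay above all 11 sham libraries and 1 below all of them, and the other 8 lay inside the sham range. The log2 fold change was 0.83 ± 0.35 with an adjusted p of 0.102 (DESeq2 0.0675). It passed without RYGB replicate 11 (0.91) or without sham replicate 1 (1.06, adjusted p 0.0391), the sham library with the highest value.

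Htr1a in batch A sham libraries was 0.472, 1.02, 1.22, 7.90 and 9.12 CPM, the highest pair being sham replicates 1 and 2. In batch B sham ran from 0.727 through 0.894 to 2.25, and RYGB libraries ran from 1.22 through 2.81 to 5.26 over both batches. Sham replicates 1 and 2 thus held the highest Htr1a levels of all 65 libraries, and the other 9 sham libraries lay at or below 2.25. Both had hypothalamic scores under 3.5, and sham replicate 1 also had a habenula and thalamus score of 4.69 and sham replicate 2 a cortex and hippocampus score of 6.08. The log2 fold change over all libraries was 0.27 ± 0.33 (adjusted p 0.610), and within batch A it was -0.27 ± 0.46.

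Without the 13 libraries of low hypothalamic score, 4 of the 10 members passed, all higher in RYGB-treated rats, where 11.8% of 21942 genes passed (7.47% higher). Htr1a had a log2 fold change of 1.34 ± 0.35 (adjusted p 0.0113), from 1.06 ± 0.578 CPM in 7 sham libraries and 3.12 ± 1.35 in 14 RYGB libraries. Htr1b had 1.44 ± 0.39 (0.0127), from 2.03 ± 0.940 and 5.81 ± 2.79. Htr2a and Htr5a remained past the threshold at the values above. This removal took 4 of 11 sham libraries and 0 of 14 RYGB libraries. RYGB replicate 6 was kept, with a hypothalamic score of 3.78 and a cortex and hippocampus score of 6.20, the highest of all libraries. Whether marker content of the dissections has a part in the Htr1a and Htr1b differences was not tested beyond these values.

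**Figure D3:**
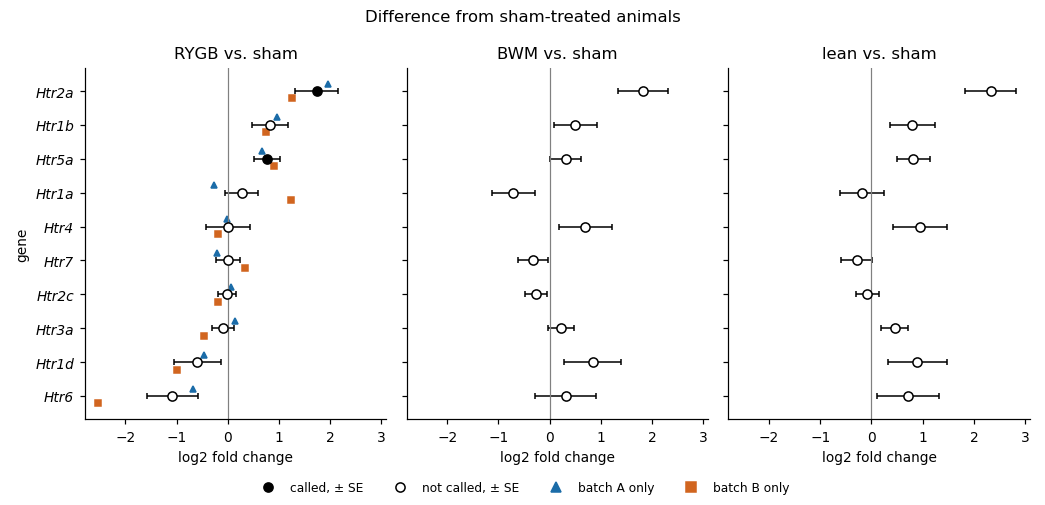
Log2 fold change with its standard error for the 10 genes in RYGB-treated, BWM and lean vs. sham-treated animals from the fit of all 65 libraries, with filled points past an adjusted p of 0.05. In the RYGB panel, triangles and squares give the fits of batch A and batch B alone. Htr2a (1.74) and Htr5a (0.77) are filled in the RYGB panel, and no point is filled in the others.

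Marker genes of neighbouring tissue were compared between the same groups. Between RYGB- and sham-treated rats 0 of 7 striatal markers passed under edgeR, with log2 fold changes from -2.05 to -0.77, all below 0 with a median of -1.17. Of 8 choroid plexus markers 1 passed (Kl, 2.47), where 13% of all genes did, and 7 were above 0, with a median of 1.31. All 6 meningeal markers were above 0, from 0.96 to 1.58 with a median of 1.27, and 0 passed. Hypothalamic (12), habenular and thalamic (9), cortical and hippocampal (6), general neuronal (5), and the tested pituitary (7) and raphe (3) markers gave 0 calls. Hypothalamic scores ran from 3.78 to 6.56 in RYGB and from 1.96 to 6.64 in sham libraries, and cortical scores from 0.830 to 6.20 and from 0.811 to 6.08. In BWM rats 5 of 7 tested pituitary and 2 of 8 choroid plexus markers were higher than in sham-treated rats, where 0.32% of all genes passed, and no other marker list held a call. Pituitary scores were 9.58, 5.38 and 3.09 in BWM replicates 5, 7 and 6, and at most 1.095 in the other BWM libraries. The part of these markers in the receptor differences was not tested.

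Htr1d (gene14873, chromosome 5, 154780958 to 154801505, plus strand), an autoreceptor close in sequence to Htr1b, gave 0.440 to 6.42 CPM in sham libraries with a median of 1.63, and 0.497 to 2.48 in RYGB libraries with a median of 1.27. Its log2 fold change of -0.60 ± 0.46 (adjusted p 0.396) became 0.06 without the libraries of high striatal score.

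Among the Gs-coupled receptors, Htr6 (gene14928, chromosome 5, 157501202 to 157518870, minus strand), which is concentrated in striatal neurons, ran from 2.08 through 8.22 to 27.8 CPM in sham-treated and from 1.69 through 4.14 to 7.29 in RYGB-treated rats. The sham libraries thus spread over a range that the RYGB libraries did not reach. Its log2 fold change was -1.08 ± 0.49 (adjusted p 0.128), and -0.48 ± 0.33 (0.388) without the high-striatum libraries, of which 3 were sham and 0 RYGB. By batch it was -0.68 ± 0.58 in A and -2.53 ± 0.87 in B (adjusted p 0.502 and 0.0586), and the difference between batches was -1.85 ± 0.87 (adjusted p 0.564).

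Htr4 (gene34770, chromosome 18, 57637013 to 57820317, plus strand) had 0.386 to 9.98 CPM in sham and 1.16 to 5.94 in RYGB libraries, and a log2 fold change of 0.00 ± 0.43. Without the low-hypothalamus libraries it was 0.86 ± 0.37 (adjusted p 0.120). Htr7 (gene4570, chromosome 1, 254547964 to 254671811, minus strand) had 1.92 to 22.5 in sham and 5.52 to 14.2 in RYGB libraries, with -0.00 ± 0.23. Neither difference exceeded the spread between animals.

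Htr2c (gene38442, chromosome X, 118084520 to 118318040, plus strand) was measured with the most reads, 1462 to 6384 counts per library. It ran from 50.2 through 125 to 205 CPM in sham-treated and from 51.6 through 115 to 149 in RYGB-treated rats, a log2 fold change of -0.01 ± 0.17 (adjusted p 0.984). Htr3a (gene20337, chromosome 8, 53211436 to 53223878, minus strand) ran from 2.58 through 8.65 to 14.4 in sham and from 5.07 through 7.89 to 10.7 in RYGB libraries, with -0.09 ± 0.21 (0.801). For both genes the RYGB libraries lay inside the sham range.

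BWM rats were food-restricted toward the body weight of RYGB-treated rats without the operation, although per the study they were heavier than RYGB-treated rats by the end of the observation period. Against sham-treated rats 0 of 10 members passed under edgeR, where 0.32% of genes did. At an unadjusted p under 0.05 there was 1 member, Htr2a, where 12.3% of genes fell. Htr2a ran from 0.508 through 1.68 to 10.7 CPM in the 7 BWM libraries. Its log2 fold change was 1.82 ± 0.49, of the size seen after RYGB, but with an adjusted p of 0.0757 (DESeq2 0.0258, with 0.691% of genes passing). The value leaned on BWM replicate 1, at 10.7, and without that library it was 1.03 (adjusted p 0.224), while it passed without BWM replicate 2 (2.01) or 6 (1.96). The lowest value was that of Htr1a, -0.71 ± 0.41 (adjusted p 0.494).

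BWM replicate 1 stood above the other 6 BWM libraries for Htr1b, Htr1d, Htr2a, Htr3a, Htr4, Htr5a and Htr6, the last at 53.3 CPM against 1.54 to 7.92. Its striatal score was 9.24, the highest of all libraries, and its hypothalamic score was 1.92. RYGB and BWM were also compared directly. Of the 10 members 0 passed under edgeR, where 0.343% of genes did, or under DESeq2 (0.179%), and 3 had an unadjusted p under 0.05, where 12.6% of genes did. Htr1d (-1.44 ± 0.49, adjusted p 0.247) and Htr6 (-1.39 ± 0.51, 0.276) had negative and Htr1a (0.98 ± 0.40, 0.320) had positive differences. Htr1d was -0.18 without BWM replicate 1, and without the high-striatum libraries Htr6 was 0.26. Htr2a did not separate the groups, at -0.09 ± 0.43.

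Lean rats gave the widest Htr2a difference from sham-treated rats. The 6 lean libraries ran from 0.978 through 5.19 to 5.66 CPM, and all lay above the 5 sham libraries of batch A, the batch both shared. How often other genes separated these libraries was not counted. The log2 fold change was 2.33 ± 0.50 with an unadjusted p of 1.91e-05 and an adjusted p of 0.151 (DESeq2 0.0345, with 0.0149% of genes passing). Under edgeR 0 genes of the table passed in this comparison (0.0%, with 12.2% at an unadjusted p under 0.05, and 5 genes under DESeq2). At an unadjusted p under 0.05 there were 2 members, the other being Htr5a at 0.82 ± 0.32 (adjusted p 0.299). Htr2a passed without lean replicate 6 (2.53), the lowest lean library, or without sham replicate 1 (2.28). Lean replicates 2, 3 and 4 had striatal scores above 7, and lean 2 and 5 had low hypothalamic scores. Median Htr2a was 5.2 CPM in all libraries with striatal scores above 7 and 1.92 in the others. Without the low-hypothalamus libraries, 4 lean rats had 3.64 ± 2.01 CPM of Htr2a (SD) and 7 sham rats 0.918 ± 0.464. The part of these marker levels in the lean difference was not tested. The comparisons of RYGB, BWM and lean rats all use the same sham libraries, in which Htr2a was lower than in any other group by its mean.

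None of the gut hormone treatments moved a serotonin receptor gene past the threshold against saline. For PYY3-36, 0 of 10 members passed under edgeR or DESeq2, where 0.0% of genes did under edgeR and 0.0359% under DESeq2. Differences ran from -0.61 ± 0.72 for Htr6 to 0.63 ± 0.50 for Htr1a, with 0 members and 7.54% of genes at an unadjusted p under 0.05. For liraglutide, 0 of 10 passed under either tool, where again 0.0% of genes did under edgeR and 0.0419% under DESeq2. Differences ran from -0.23 ± 0.24 for Htr2c to 0.82 ± 0.47 for Htr1a, with 0 members and 2.08% of genes at an unadjusted p under 0.05. Htr6 for PYY3-36 was 0.16 without saline replicate 8.

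The combination of PYY3-36 and liraglutide gave positive differences for 9 of the 10 members, with a median log2 fold change of 0.47 over members and -0.02 over all genes, and 0 passed under edgeR, where 0.00457% of genes did, or under DESeq2 (0.0568%). None had an unadjusted p under 0.05, where 2.53% of genes did. All 7 striatal markers were above 0 in the same comparison (median 0.59) and all 6 cortical and hippocampal markers below 0 (median -1.30), and 4 of 10 combination and 1 of 8 saline libraries had a striatal score above 7. Their part in the receptor values was not tested. Htr2a was the widest. The batch A libraries of the combination gave 1.70, 2.90, 3.56, 3.68 and 4.28 CPM against 2.04, 2.21 and 2.74 for saline. Those of batch B gave 0.423, 5.65, 5.84, 5.93 and 7.68 against 0.702, 1.06, 1.29, 1.82 and 6.92. The log2 fold change was 0.83 ± 0.45, and the groups overlapped in both batches. Htr1b (0.73 ± 0.40) had the next widest, with a difference between batches of 1.32 ± 0.48 (unadjusted p 0.0135, adjusted p 0.777, where 5.76% of genes had an unadjusted p under 0.05).

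Sham- and saline-treated rats, the controls of both arms, differed in 0 of 10 members under edgeR and DESeq2, where 0.0137% of genes passed under edgeR and 0.0777% under DESeq2. At an unadjusted p under 0.05 there were 2, Htr2a (-1.30 ± 0.44) and Htr5a (-0.67 ± 0.28, adjusted p 0.321), both negative, where 12.9% of genes did so. These are the genes that passed for RYGB vs. sham, and that comparison shares the sham libraries.

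More genes differed between the batches than in any treatment comparison. Between batch B and batch A 40.7% of genes passed (47.7% at an unadjusted p under 0.05), and 2 of 10 members: Htr1a was lower in B, with a log2 difference of -0.93 ± 0.26 (adjusted p 0.00341), and Htr2c higher, with 0.50 ± 0.14 (0.00267). Without the low-hypothalamus libraries Htr1a was at -0.49 (0.108) and Htr2c at 0.48 (0.00531).

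Of 4 further receptor genes in the table, Htr2b was at 0 in 34 libraries and Htr3b in 40, and neither passed the filter. Htr5b, a receptor of rodents that is nonfunctional in humans, was lower in RYGB- than in sham-treated rats, with a log2 fold change of -1.56 ± 0.54 (adjusted p 0.0456), and Htr1f gave -0.54 ± 0.55. The Htr5b call was close to the threshold and rested on few reads, with a median of 15 counts per library and a range of 2 to 361. Of 7 tested genes of serotonin synthesis, transport and breakdown, 1 was higher and 1 lower, where 6.52% and 6.53% of all genes were. Maoa, which degrades serotonin and noradrenaline, rose by 0.40 ± 0.08 (adjusted p 0.00160), and Tph1, the peripheral and pineal tryptophan hydroxylase, was lower at -2.33 ± 0.62 (0.0106). Tph2, the brain form, gave -0.72 ± 0.36 (0.166), and the vesicular transporter Slc18a2 gave 1.97 ± 0.70 (0.0511).

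Of 21 genes of receptor coupling and signalling, 3 were higher and 0 lower in RYGB-treated rats, where 13% of all genes passed, and the median of the list was 0.19 against -0.02 over all genes. A share of this size is near that of all genes. Gnaq and Gna11, which encode the G protein subunits through which Htr2a and Htr2c signal, had log2 fold changes of 1.18 ± 0.27 (adjusted p 0.00429) and 0.62 ± 0.20 (0.0340). Gnai3, an inhibitory subunit, had 0.25 ± 0.09 (0.0439). Of 4 genes of receptor partners and RNA editing, 0 passed under edgeR, and 1, Adarb2 of the editing enzymes, had an unadjusted p under 0.05 (0.0494). In BWM vs. sham-treated rats 0 genes of these 4 lists passed, Tph2 being closest at 1.5 ± 0.43 (adjusted p 0.0897).

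Receptors also differed in how they followed the general composition of the libraries. Counts of 98 ribosomal protein genes took 1.36 to 3.14% of each library. From the 22 libraries with the lowest share (1.36 to 1.66%) through the middle 21 to the 22 with the highest (1.99 to 3.14%), median Htr2a went from 3.67 to 2.61 to 1.02 CPM. Htr5a went from 7.13 to 5.85 to 3.5, Htr1b from 6.76 to 4.84 to 2.20, Htr1a from 3.65 to 2.79 to 1.08 and Htr4 from 5.30 to 2.71 to 1.62. The most abundant receptors moved less with this share, with medians for Htr2c of 120, 127 and 119, for Htr3a of 8.98, 8.82 and 8.31 and for Htr7 of 9.53, 9.07 and 8.97. Htr6 (6.92, 3.88 and 5.18) and Htr1d (1.89, 1.28 and 1.43) were lowest in the middle libraries.

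This share also differed between the groups. It had a median of 2.30% in sham-treated rats (1.47 to 2.89%) and 1.66% in RYGB-treated rats (1.43 to 3.14%), and the highest share of all was that of RYGB replicate 11. Outside the highest 22 libraries, 3 sham libraries gave Htr2a levels of 0.661 to 0.958 CPM and 12 RYGB libraries 1.5 to 5.05. Their shares were 1.47 to 1.85% and 1.43 to 1.94%. Htr5a in the same libraries overlapped, at 3.77 to 6.07 in sham and 5.60 to 10.3 in RYGB. These sham libraries were replicates 1, 2 and 3, all of batch A, and replicates 1 and 2 had low hypothalamic scores (3.14 and 1.96). The RYGB libraries came from both batches and none had a low score. How often other genes separated these libraries was not counted. Among the highest 22, 8 sham libraries ran from 0.531 to 1.77 for Htr2a, and RYGB replicates 11 and 3 gave 0.290 and 2.63. The part of this share in the differences was not tested beyond these values.

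**Figure D4:**
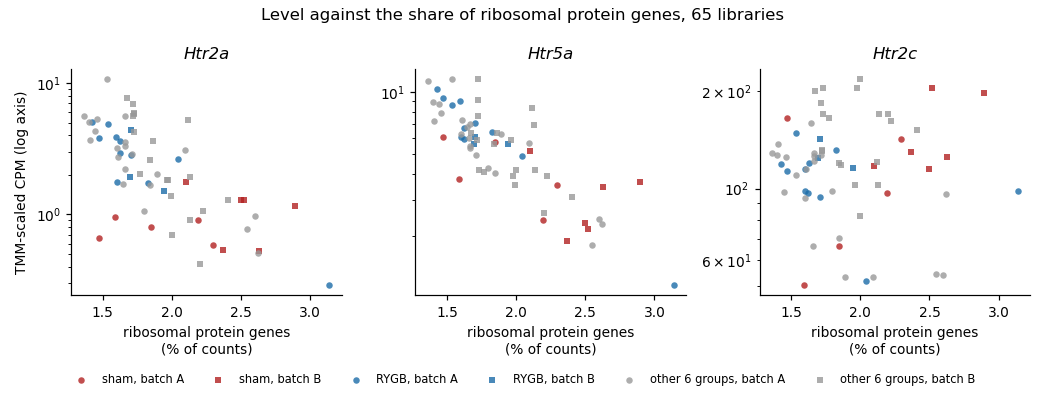
Level of Htr2a, Htr5a and Htr2c (CPM, log axis) against the share of counts from 98 ribosomal protein genes (%) in each of the 65 libraries, with RYGB and sham libraries marked. Htr2a and Htr5a lie lower at higher shares, with medians of 1.02 and 3.5 in the 22 libraries of the highest share, while Htr2c does not, at 119.

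Htr6, Htr1d, Htr4, Htr3a and Htr2a also moved with striatal markers. In the 13 libraries with a striatal score above 7, Htr6 ran from 12.7 through 18.6 to 53.3 CPM, and in the other 52 from 1.54 through 3.99 to 10.1, with no overlap. The share of all genes that separate these libraries was not counted. Htr1d was 2.61 to 15.3 against 0.237 to 4.77, and Htr4 3.49 to 29.1 (median 6.75) against 0.386 to 9.98 (2.44). Htr2a ran from 0.909 to 10.7 (median 5.2) in these 13 libraries and from 0.290 to 6.92 (1.92) in the other 52. Htr3a ran from 9.84 to 25.0 (median 11.9) and from 2.28 to 13.5 (8.25) in the same 2 sets. Htr7 leaned the other way, with medians of 7.38 and 9.60. Scores in RYGB libraries stayed between 4.65 and 6.04, and those in sham libraries ran from 4.36 to 9.04.

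**Figure D5:**
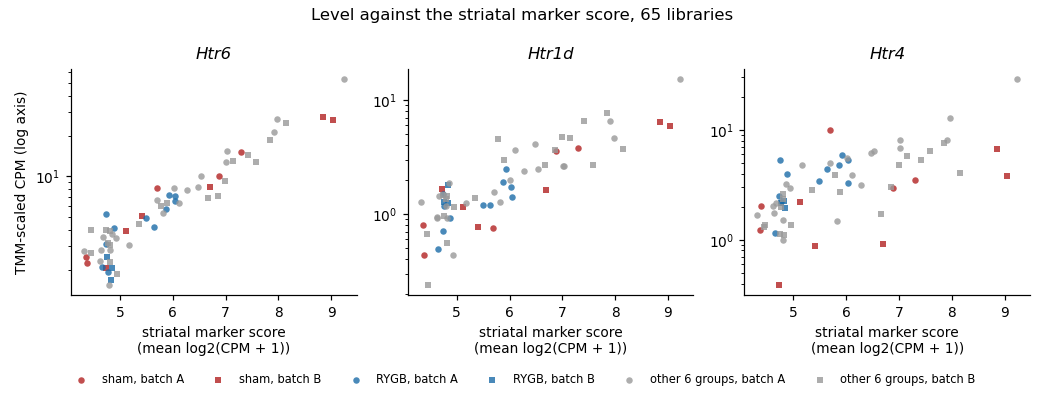
Level of Htr6, Htr1d and Htr4 (CPM, log axis) against the mean log2 level of striatal markers in each of the 65 libraries. All 13 libraries with a score above 7 have more Htr6 (12.7 to 53.3) than any other library (at most 10.1), and Htr1d and Htr4 rise with the score but overlap. The share of all genes that separate these libraries was not counted.

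Genes much like each receptor over the 65 libraries, by Pearson r of log2 level after subtraction of batch means, are given as a description, since libraries share composition and depth. Htr6 was close to Adora2a (r = 0.961), a transcript of striatal projection neurons. Htr4 was closest to Lingo3 (0.908), Htr1b to Gad2 (0.902), which makes GABA, Htr5a to Nploc4 (0.889), Htr2a to Mn1 (0.888) and Htr1d to Ppp1r2 (0.886). Htr7 was closest, after its copy, to Vwc2 (0.843), Htr1a to Wbscr17 (0.831), Htr3a to Ssbp2 (0.783) and Htr2c to Rcan2 (0.720). Htr2c thus had no neighbour as close as those of the other receptors. Among the receptors themselves Htr1d and Htr6, 2699696 bases apart on chromosome 5, had the highest r (0.849), followed by Htr2a and Htr5a (0.808) and Htr4 and Htr6 (0.795), and Htr6 and Htr7 the lowest (-0.475).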

How the data were processed

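Each library was poly-A selected, stranded and sequenced single-end. The authors trimmed reads with Cutadapt (1.16 in the submitters' processing notes, with further versions named in the methods), aligned them to Rnor_6.0 with STAR 2.7.2b and counted reads per gene over exons with featureCounts 1.6.4, with strand, entering reads that matched several genes or places as fractions. The file deposited thus holds estimated counts without normalization, and 30.3% of values above 0 were not whole (tolerance 1e-06). They were rounded here, which changed no library total by more than 0.00104%. No 2 libraries were identical.

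Genes were kept by edgeR's filter (minimum count 10, minimum total 15) and scaled by TMM (factors 0.887 to 1.10). The comparisons were fitted with group and batch over all 65 libraries by edgeR 4.0.16 in R 4.3.3 (quasi-likelihood test, Benjamini-Hochberg adjustment, threshold 0.05), with DESeq2 1.42.0 as an alternative. The authors' own test was also DESeq2, but with shrunken fold changes and an absolute log2 fold change over 1, and they state no batch term. The DESeq2 fits here had a batch term, no shrinkage and no such cut, so the tests are not like-for-like. From normalized counts the authors also reported significantly higher Htr1b, Htr2a and Htr5a after RYGB than after sham surgery. Of these, Htr1b did not pass here in the fit of all libraries. Levels are TMM-scaled CPM (counts relative to library size), per kilobase of the exon length given in the file where genes are compared. Marker scores are means of log2(CPM + 1). Spreads (SD) are between rats, and depth was 20040821 to 36539714 counts. Standard errors of log2 fold changes were taken from the edgeR fit, as the absolute log2 fold change over the square root of F.

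In simulated data with 200 of 21670 genes changed by 2 on the log2 scale, 89.0% were recovered for RYGB vs. sham (13 false calls), 86.0% for BWM vs. sham, 73.0% for PYY3-36, 75.5% for liraglutide and 87.0% for the combination vs. saline. The members' differences from saline under these hormones were at most 0.83, and recovery of changes that small was not measured. Counts were also drawn gene by gene, without the composition that genes of a real library share.

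The 10 genes and the gene lists were chosen with earlier results of these data known. The genes named were the members, the called genes of the serotonin lists, the extremes of each comparison and the closest genes by correlation, of which 1 is not reported here. Alternatives were other normalization, filters, batches apart, replicate blocks, leaving out each library, and leaving out libraries by marker score. Replicate numbers are shared between groups, but same-numbered libraries deviated together in every pair only for liraglutide vs. saline (5 of 5 correlations over 0.1, from 0.321 to 0.611). Figures were drawn with matplotlib 3.10.9.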

Additional observations from a re-analysis of the deposited data

Results flagged for a closer look

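Libraries that stood apart from their group were looked for with Dixon's test at the 95% level, gene by gene, in the groups of 4 to 10 libraries. It marked 10 of 60 sets. Chance marks about 1 in 20 where values are normal and sets independent. Here the genes share libraries, levels were not on a log scale, and the saline and combination sets held both batches.

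BWM replicate 1 accounted for 7 of the marked sets. It held 14.2 CPM of Htr1b (the next BWM library 6.09), 15.3 of Htr1d (2.36), 10.7 of Htr2a (3.34), 25.0 of Htr3a (10.2), 29.1 of Htr4 (3.25), 11.5 of Htr5a (5.67) and 53.3 of Htr6 (7.92). Its striatal score was 9.24 and its hypothalamic score 1.92, against hypothalamic scores of 5.29 to 6.66 in the other 6 BWM libraries.

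The others were single genes. Saline replicate 4 held 6.92 of Htr2a (next 2.74), with a cortical score of 5.51 and a hypothalamic score of 1.67. Saline replicate 8 held 25.2 of Htr6 (next 6.32), with a striatal score of 8.15. Lean replicate 2 held 3.4 of Htr7, the next lowest lean library being at 7.38, with a hypothalamic score of 1.56, a striatal score of 7.91 and a cortical score of 5.61. The part of these marker levels in the receptor values was not tested.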

How the results depend on the processing

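Over all genes, the counts called for RYGB vs. sham (2853) were 5587 with no batch term, 529 in batch A alone, 483 without the high-striatum libraries and 1 against saline. For BWM vs. sham (70) they were 2183 with no batch term, 346 in batch A, 231 by DESeq2, 22 without the low-hypothalamus libraries, 9 against saline and 0 with only the compared groups fitted. For lean vs. sham (0) they were 2339 with no batch term, 203 without the low-hypothalamus libraries and 5 by DESeq2, and for RYGB vs. BWM (75) 13 in batch A, 126 without the low-hypothalamus libraries and 0 with only the compared groups. For PYY3-36 (0) there were 12 by DESeq2 and 1 with only the compared groups, for liraglutide (0) 14 by DESeq2 and 1 in batch B. For the combination (1) there were 19 by DESeq2, 2 with no batch term and 0 in either batch, with only the compared groups or without the high-striatum libraries. For sham vs. saline (3) there were 26 by DESeq2, 5 with no batch term, 1 without the high-striatum libraries and 0 in batch A or with only the compared groups.

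Of the 10 receptors, 2 were called for RYGB vs. sham, and there were 4 with no batch term (Htr1b at 0.91 and Htr6 at -1.28 added), 4 without the low-hypothalamus libraries, 1 in batch A, 0 in batch B, 1 without the high-striatum libraries, 0 against saline and 1 where a log2 fold change over 1 was also asked. For BWM there was 1 with no batch term or by DESeq2, for lean 2 with no batch term and 1 by DESeq2, and for the batches 0 with a log2 fold change over 1.

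The replicate block gave 1618 genes for RYGB vs. sham, with Htr2a at 2.29 and Htr5a at 1.07 still called, 1 for BWM vs. sham, 0 for RYGB vs. BWM, the combination and sham vs. saline, and 3077 genes with 1 receptor between batches, Htr1a then being at -0.49 and not called. For liraglutide vs. saline it called 0 genes, as without it. The other replicate numbers did not pair the libraries, with a median same-number correlation of 0.0372 for RYGB and sham.

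Signs turned only for members that were not called. For RYGB vs. sham, Htr1a was -0.27 in batch A and Htr1d 0.062 without the high-striatum libraries. Htr2c was 0.0031 with RLE scaling, 0.0034 by DESeq2, 0.017 with no filter, 0.060 in batch A, 0.18 with the block, 0.10 without the high-striatum and 0.16 without the low-hypothalamus libraries. Htr3a was 0.14 in batch A, 0.076 with the block and 0.10 without the high-striatum libraries. Htr4 was -0.020 in batch A, -0.19 in B, -0.085 with only the compared groups and -0.0085 against saline. Htr7 was 0.0047 with RLE scaling, 0.015 with no filter, 0.33 in batch B, 0.011 without the low-hypothalamus libraries and 0.0053 by DESeq2. For BWM vs. sham, Htr5a was -0.16 and Htr1b -0.020 without the high-striatum libraries, and Htr5a -0.040 and Htr1a 0.48 without the low-hypothalamus libraries, with Htr5a -0.36 against saline. Htr6 was 0.36 for PYY3-36 without the high-striatum libraries and -0.077 for sham vs. saline without the low-hypothalamus libraries. Htr7 for the combination was 0.0051 with no filter, 0.0089 with the block, 0.073 in batch B, 0.0047 with only the compared groups and 0.017 without the high-striatum libraries. The causes were not tested.

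Leaving out each library in turn gave 1470 (without sham 5) to 4938 (without RYGB 11) genes for RYGB vs. sham, also 1701 without RYGB 13 and 1825 without sham 4, and 1 to 3 receptors. It gave 5 to 408 genes and 0 to 1 receptors for BWM vs. sham, 0 to 1081 and 0 to 2 for lean vs. sham (300 genes without sham 1), 2 to 166 genes for RYGB vs. BWM, 0 to 2 for PYY3-36, 0 to 1 for the combination and 1 to 186 for sham vs. saline. Log2 fold changes turned sign for Htr2c (-0.10 to 0.11), Htr4 (-0.10 to 0.38) and Htr7 (-0.10 to 0.27) in RYGB vs. sham, for Htr5a (-0.044 to 0.43) and Htr1b (-0.066 to 0.74) in BWM vs. sham, for Htr7 in lean vs. sham (-0.37 to 0.0062) and the combination (-0.10 to 0.12), and for Htr6 in PYY3-36 (-0.87 to 0.16).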
